A study of Mus musculus with 6 samples.

Results

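The 90 genes described here encode the nuclear part of the oxidative phosphorylation machinery. They are the rows of the count table whose symbols begin with Nduf, Cox4 to Cox8, Uqcr or Atp5, or are Sdha, Sdhb, Sdhc or Sdhd, and that hold at least 50 UMIs (molecular tags by which copies of the same captured RNA are counted as 1) over all barcodes. Of 27998 genes in the table, 92 matched by symbol. Cox7b2, with 4 UMIs, and Cox8c, with 0, fell below the minimum. By complex, the members are 36 subunits of complex I, 4 of complex II, 8 of complex III, 17 of complex IV, 16 of ATP synthase (complex V), 8 assembly factors and 1 supercomplex factor.

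Oxidative phosphorylation takes place in the inner mitochondrial membrane. Complexes I and II pass electrons to ubiquinone, complex III passes them to cytochrome c, complex IV (cytochrome c oxidase) passes them to oxygen, and ATP synthase uses the proton gradient to make ATP. Most subunits are encoded in the nucleus, and a few come from mitochondrial DNA. Several small subunits of complex IV exist as paralogous isoforms, some of them known from heart and skeletal muscle (Cox6a2, Cox7a1, Cox8b), from lung and hypoxia (Cox4i2), from testis (Cox6b2) or from hypoxia and pericytes (Ndufa4l2).

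Cells came from lungs of mice with the genotype SMA-GFP;Tbx4cre;RosaTdTomato, in which GFP reports smooth muscle actin (SMA) and tdTomato (Tm) marks cells with a history of Tbx4-driven Cre, a label of the lung mesenchymal lineage. The labels name 6 samples, 1 for each of 3 gates in normal mice (day 0) and on day 21 of bleomycin, a drug given to produce lung injury with scarring. The gates were positive for both reporters (SMA+Tm+), for tdTomato alone (SMA-Tm+) or for neither (SMA-Tm-). All gates were stated to lack Epcam, CD31 and CD45, the surface antigens of epithelium, endothelium and leukocytes. The labels do not state the number of mice behind a sample.

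The deposited table pools all samples, and the barcode suffixes 1 to 6 are not tied to a gate or day by any label. It was treated as 1 sample, so normal and bleomycin lungs were not compared and no test was made. Values per suffix are given beside the pooled values. Intervals are exact 95% intervals for counting error only, since cells of a class share their libraries. The table holds 35262820 UMIs in 10410 barcodes, of which 9919 were analysed, with a median of 2699 UMIs per cell and 1784 to 3634 by suffix. There were 55 barcode sequences in more than 1 suffix. A UMI of Xist was found in at most 0.227% of cells of suffixes 1 to 3 and in 87.6% to 96.8% of cells of suffixes 4 to 6, and Y-linked UMIs showed the opposite split, so differences between those suffixes can include the sex of the mice. Only 3 members are X-linked. Although the sort was stated to remove them, clusters led by leukocyte markers held 6022 cells and the endothelial class held 596. Each of the 4 mesenchymal or mural classes named below had at least 7 of its fixed markers above 50 CPM (UMIs per 1000000 UMIs of the class), and no marker of theirs was at 0.

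Members were described in 2545 mesenchymal cells. These were 751 Col13a1 fibroblast-like, 710 Col14a1 fibroblast-like, 530 ductal myofibroblast-like and 63 mural-like cells (pericytes and smooth muscle), with 491 further cells that met no naming rule. Fibroblast classes needed at least 3 UMIs of Col1a2 and Col3a1 together, and endothelial cells at least 2 UMIs of Pecam1 and Cdh5 together. The 63 mural-like cells were exempt from the collagen minimum, which 31 of them met. Suffix 4 supplied 464 of the 491 unnamed mesenchymal cells, 615 of the 751 Col13a1 cells and 44 of the 63 mural-like cells, so these classes come largely from 1 suffix.

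Promoter sequence was looked at because 6 complex IV isoforms had a class above 10 times their median class, as described below, while their broadly found paralogs did not. RefSeq windows of the GRCm38.p6 build, from 250 bases before to 50 after the start, were at hand for 72 of the 90 members in 77 windows. Those of Cox6b2 and Cox8b, 2 of the isoforms whose level differed most by class, are shown with those of their common paralogs Cox6b1 and Cox8a, and that of Cox6a1 is shown for the NRF1 motif. The windows lie at chr7:4753045-4753344 (Cox6b2), chr7:30626065-30626364 (Cox6b1), chr7:140900397-140900696 (Cox8b), chr19:7217567-7217866 (Cox8a) and chr5:115348909-115349208 (Cox6a1), all on the minus strand and written 5′ to 3′. Capitals mark matches to 1 of 4 motifs searched on both strands: the NRF1 palindrome (the 10 capitals nearest the 5′ end of the Cox6a1 window), CCGGAAG (ETS family, which includes GABPA), AAGATGGC (YY1) and ACGTG (the core of the hypoxia response element).
Cox6a1: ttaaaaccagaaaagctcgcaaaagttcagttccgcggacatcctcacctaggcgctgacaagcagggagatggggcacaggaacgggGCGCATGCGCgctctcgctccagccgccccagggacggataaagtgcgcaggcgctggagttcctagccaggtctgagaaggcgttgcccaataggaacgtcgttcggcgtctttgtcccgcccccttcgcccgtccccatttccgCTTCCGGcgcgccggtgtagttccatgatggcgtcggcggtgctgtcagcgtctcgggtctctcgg
Cox6b1: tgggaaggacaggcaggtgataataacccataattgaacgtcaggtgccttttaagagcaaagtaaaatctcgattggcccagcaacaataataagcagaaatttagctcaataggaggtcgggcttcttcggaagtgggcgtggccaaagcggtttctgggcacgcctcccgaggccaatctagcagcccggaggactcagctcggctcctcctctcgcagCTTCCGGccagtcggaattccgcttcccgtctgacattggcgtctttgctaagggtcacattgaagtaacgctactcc
Cox6b2: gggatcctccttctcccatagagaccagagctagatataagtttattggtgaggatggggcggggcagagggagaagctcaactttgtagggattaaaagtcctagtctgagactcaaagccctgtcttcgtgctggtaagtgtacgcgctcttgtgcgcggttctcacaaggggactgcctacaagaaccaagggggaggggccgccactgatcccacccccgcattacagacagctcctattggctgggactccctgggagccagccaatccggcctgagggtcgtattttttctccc
Cox8a: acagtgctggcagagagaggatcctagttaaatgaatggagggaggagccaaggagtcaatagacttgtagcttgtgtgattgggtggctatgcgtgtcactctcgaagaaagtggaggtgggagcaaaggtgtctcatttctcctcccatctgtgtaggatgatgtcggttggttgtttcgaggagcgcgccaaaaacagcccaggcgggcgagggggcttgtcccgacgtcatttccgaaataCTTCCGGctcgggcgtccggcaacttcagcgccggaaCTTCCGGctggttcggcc
Cox8b: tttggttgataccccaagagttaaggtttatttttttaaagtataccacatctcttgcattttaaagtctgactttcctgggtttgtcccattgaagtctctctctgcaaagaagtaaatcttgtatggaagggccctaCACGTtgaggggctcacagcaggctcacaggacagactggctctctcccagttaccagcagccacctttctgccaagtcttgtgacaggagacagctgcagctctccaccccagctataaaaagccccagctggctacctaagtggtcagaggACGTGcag
The Cox6a1 window holds the NRF1 palindrome and, on the opposite strand, the ETS motif. The Cox6b1 window holds the ETS motif once and the Cox8a window 2 times, all on the opposite strand. The Cox6b2 window holds none of the 4 motifs, and the Cox8b window holds ACGTG once on each strand. The windows of the broadly found Ndufa4 and Cox7a2 also hold none of the 4. That of the restricted Cox7a1, not shown, holds ACGTG once. No window was at hand for Cox4i2, Ndufa4l2 or Cox6a2. Among the paired complex IV isoforms with a window, the ETS motif was thus found in Cox6a1, Cox6b1 and Cox8a and in no restricted isoform. ACGTG was found in the restricted Cox8b and Cox7a1 and in no broad one, while Cox6b2, Ndufa4 and Cox7a2 held no motif. Whether the motifs bear on the levels was not tested. Over all 77 member windows, the NRF1 palindrome was found in 7 (9.09%), against 0.971% of 32851 RefSeq windows. The ETS motif was found in 17 (22.1% against 8.86%), the YY1 motif in 9 (11.7% against 2.75%) and ACGTG in 18 (23.4% against 19.6%). The palindrome reads the same on both strands, so each site counts once per window. A match describes the letters and is not a binding site.

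As a group, the 90 genes took 630613 UMIs, 1.79% of the table, with a median of 47 UMIs per cell. As a share of all UMIs they were highest in mural-like cells, at 2.38% of UMIs (2.29 to 2.47), followed by plasma cell-like cells at 2.21% (2.12 to 2.30, from 16 cells) and mesothelial-like cells at 2.16%. The mural-like share includes Cox4i2 and Ndufa4l2, described below, which held 1261 and 1655 CPM there. Whether mural-like cells stay highest without them was not computed. Among the fibroblast classes the share of the 90 genes ran from 2.07% in ductal myofibroblast-like cells through 1.78% in Col13a1 and 1.72% in unnamed cells to 1.56% in Col14a1 fibroblast-like cells. Endothelial cells stood at 1.65%. Among leukocytes the share was 2.09% in classical monocyte-like, 2.06% in NK-like and 1.97% in alveolar macrophage-like cells, and 1.57% in T-like, 1.48% in B-like, 1.36% in mast or basophil-like and 1.35% in neutrophil-like cells.

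The spread between suffixes was wider than the counting intervals. In Col13a1 fibroblast-like cells the 4 suffixes with at least 20 cells ran from 1.33% to 1.82%, and in Col14a1 fibroblast-like cells from 1.34% to 1.61%, so these ranges overlapped. Ductal myofibroblast-like cells reached 1.81% in suffix 1 and 2.16% in suffix 4, and the lower value lay inside the Col13a1 range over all suffixes. Within the same suffix ductal cells were higher in both. Suffix 1 had 1.33% in Col13a1 and 1.44% in Col14a1 cells, and suffix 4 had 1.82% and 1.61%. The order of Col13a1 and Col14a1 cells thus reversed between these suffixes. Endothelial cells ranged from 1.42% to 2.01% over 6 suffixes. Mesenchymal cells as a whole (1.75%) and leukocytes as a whole (1.81%) differed by less than the range within either. These pooled values mix suffixes unevenly, as suffix 4 held 1844 of 2545 mesenchymal and 791 of 6022 leukocyte cells. Within every suffix the leukocyte share was the higher. The gap was least in suffix 5 (1.77% against 1.70%) and largest in suffix 3 (1.88% against 1.54%, from 35 mesenchymal cells). Cytosolic ribosomal protein genes took 10.9% of UMIs in mural-like, 12.4% in Col13a1 fibroblast-like and 44.3% in T-like cells, which moves any share of all UMIs. With ribosomal and mitochondrial genes left out of the total, mural-like cells were no longer highest: they stood at 2.78%, below plasmacytoid dendritic-like (3.31%), innate-like lymphocyte-like (3.17%), plasma cell-like (3.13%), classical monocyte-like (3.11%), NK-like (3.02%), T-like (2.97%), unnamed leukocyte (2.88%), mesothelial-like (2.84%) and conventional dendritic-like cells (2.805%). Ductal cells stood at 2.61%, Col13a1 at 2.13% and Col14a1 at 2.08%.

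**Figure D1:**
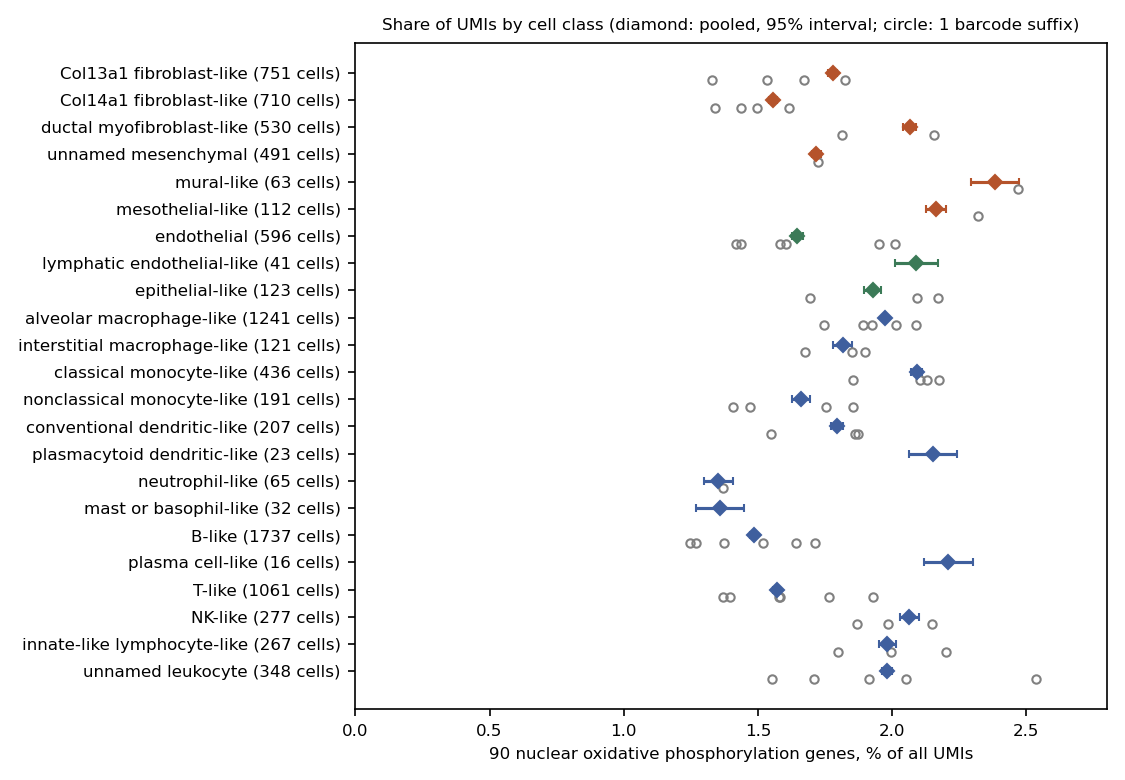
Share of all UMIs (x axis, %) taken by the 90 genes in each cell class (y axis, with its number of cells). Diamonds are pooled values with exact 95% binomial intervals (orange mesenchymal and mesothelial, green endothelial and epithelial, blue leukocyte), and open circles are single barcode suffixes with at least 20 cells. Mural-like cells are highest at 2.38%, a share that includes their high Cox4i2 and Ndufa4l2, and neutrophil-like cells lowest at 1.35%.

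Most members had no class that stood far above the others. Over the 17 named classes with at least 50 cells, 68 members had a highest class under 2 times their median class, 16 lay between 2 and 10 times, and 6 lay above 10 times. Levels were not uniform: of the other 84 members, 8 had a highest class under 2 times their lowest, the median of highest over lowest was 2.91, and 32 were lowest in neutrophil-like cells. The 6 were Cox4i2, Ndufa4l2, Cox6b2, Cox8b, Cox6a2 and Cox7a1, all of complex IV. The most abundant members were Cox4i1 (805 CPM over the table) and Cox8a (754) in complex IV, Atp5e (714) and Atp5l (602) in ATP synthase, Uqcrh (565) in complex III and Ndufa2 (413) in complex I. Complex II lay lower, with Sdhb at 113, Sdha at 91.7 and Sdhd at 64.3 CPM. Each UMI stands for a captured 3′ end, so these levels do not grow with transcript length, although capture can differ between genes.

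Cox4i2 encodes the alternative isoform of subunit 4, the regulatory subunit that otherwise is Cox4i1. It was counted at 1261 CPM (1062 to 1487) in mural-like cells, from 141 UMIs in 40 of 63 cells. The next classes were endothelial cells at 33.1 CPM and ductal myofibroblast-like cells at 26.0 CPM, whose intervals overlapped (25.04 to 43.0 and 18.0 to 36.3). Epithelial-like cells followed at 8.51 CPM from 6 UMIs, beside plasma cell-like cells with 1 UMI. Col13a1, Col14a1 and unnamed mesenchymal cells had 2, 3 and 1 UMIs, and 6022 leukocyte-like cells had 4 UMIs (0.183 CPM). In mural-like cells the ratio to the other mesenchymal cells was 256 (179 to 373). Cox4i1 stood at 707 CPM in mural-like, 732 in ductal and 553 in Col13a1 fibroblast-like cells, so mural-like cells held more UMIs of Cox4i2 than of Cox4i1.

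Ndufa4l2 is the paralog of Ndufa4, which was long listed under complex I and is now counted as a subunit of complex IV. It reached 1655 CPM (1425 to 1911) in mural-like cells, from 185 UMIs in 46 of 63 cells, 48.3 times (39.9 to 58.4) its level in the other mesenchymal cells. Unlike Cox4i2, it was also counted in Col14a1 fibroblast-like cells, at 82.5 CPM (71.4 to 94.9) in 139 of 710 cells, and in unnamed mesenchymal cells at 34.3 CPM. Endothelial cells held 39.7 CPM, within the counting interval of the unnamed cells. Col13a1 and ductal cells held 3 and 1 UMIs, and leukocyte-like cells 10 UMIs in all (0.457 CPM). Ndufa4 itself stood at 304 CPM (211 to 425) in mural-like cells, below 545 CPM (514 to 576) in Col13a1 cells, while its interval overlapped that of ductal cells (414 CPM, 380 to 450.2). Exons of Ndufa4l2 overlap those of Shmt2 on the opposite strand, and the sources do not state whether reads were assigned by strand.

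Suffix 4 alone gave 1303 CPM of Cox4i2 and 1559 CPM of Ndufa4l2 in its 44 mural-like cells. It supplied 85944 of the 111791 UMIs of this class, so the pooled levels largely restate this suffix. In Col14a1 fibroblast-like cells Ndufa4l2 stood at 98.7 CPM in suffix 4, 57.9 in suffix 1, 19.5 in suffix 2 and 18.3 in suffix 3, the last 2 from 1 UMI each. Ductal Cox4i2 was 23.8 CPM in suffix 1 and 26.9 in suffix 4. Both fibroblast patterns were thus found in suffixes 1 and 4, while no other suffix held enough mural-like cells to be read.

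In mural-like cells 37 of 63 held both isoforms, 14 held neither, 3 held Cox4i2 alone and 9 held Ndufa4l2 alone. The share of cells with a UMI was 63.5% for Cox4i2 and 73.0% for Ndufa4l2. After each cell was thinned to 1500 UMIs, with 21 shallower mural-like cells left out, the shares were 64.3% and 73.8%. In the background of leukocytes the unthinned shares were 0.0664% and 0.166%. Median depth was 1707 UMIs in mural-like and 2816 in leukocyte-like cells, so the leukocytes were the deeper group. Thinned B-like cells held them in 0% (up to 0.241% by the limit of 3 cells) and 0.160%. For Col14a1 fibroblast-like cells the share with Ndufa4l2 fell from 19.6% to 8.75% on thinning, and for ductal cells the share with Cox4i2 from 6.04% to 3.97%, both still above the leukocyte share.

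**Figure D2:**
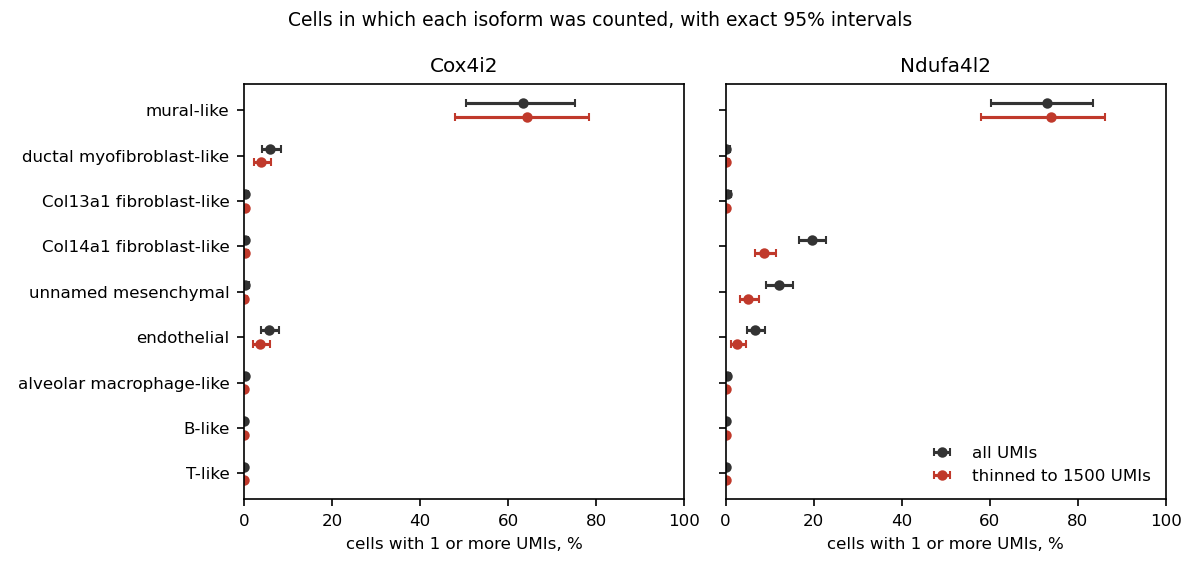
Percent of cells with at least 1 UMI (x axis) of Cox4i2 (left) and Ndufa4l2 (right) by class (y axis), with all UMIs (black) and after thinning each cell to 1500 UMIs (red); bars are exact 95% binomial intervals. Mural-like cells stand at 63.5% and 73.0%, and leukocyte classes lie near 0.

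Mural transcripts moved with both isoforms in endothelium. The 53 endothelial cells with a UMI of at least 1 of 6 mural markers (Pdgfrb, Higd1b, Notch3, Cspg4, Kcnj8, Abcc9) held Cox4i2 at 113 CPM and Ndufa4l2 at 126 CPM. The other 543 held them at 9.94 CPM (5.29 to 17.0) and 14.5 CPM (8.75 to 22.7). The 53 cells held 381744 UMIs in all and the 543 held 1307700, so cells with a marker were also deeper per cell. The summed level of the 12 fixed mural markers was 282 CPM in endothelial and 5537 CPM in mural-like cells, and 11 of the 12 had a UMI in endothelium. The part of mural RNA in the endothelial levels was not tested further. The 6 markers were not applied to fibroblasts. Of these, 524 of 530 ductal cells without a UMI of Higd1b or Notch3 held Cox4i2 at 25.5 CPM, and 693 of 710 Col14a1 cells held Ndufa4l2 at 79.9 CPM. The summed mural list, which shares contractile genes with ductal cells, was 637 CPM in ductal and 546 CPM in Col14a1 cells. The part of mural RNA in these levels was not tested, since the split by 2 markers set few cells apart.

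Cox6b2 is the testis-associated isoform of subunit 6B, whose common form is Cox6b1. It was highest in Col13a1 fibroblast-like cells at 274 CPM (253 to 297) and unnamed mesenchymal cells at 268 CPM (247 to 291), which did not differ beyond counting error. Col14a1 fibroblast-like cells held 159 CPM, alveolar macrophage-like cells 118 and mesothelial-like cells 113, the last 2 with overlapping intervals. Ductal myofibroblast-like cells held 9.93 CPM and endothelial cells 10.1 CPM. T-like and B-like cells held 2.04 and 2.82 CPM. Of 751 Col13a1 cells, 348 had a UMI (46.3%), against 13 of 530 ductal cells (2.45%) and 0.633% of B-like cells, whose median depth was 1951 UMIs against 2656 in Col13a1 cells. Thinning to 1500 UMIs gave 28.5% in Col13a1 and 0.561% in B-like cells.

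By suffix, Cox6b2 in Col13a1 cells was 151 CPM in suffix 1, 289 in suffix 4, 219 in suffix 5 and 97.8 in suffix 6. In Col14a1 cells it was 184, 97.3, 183 and 152 CPM in suffixes 1 to 4. Both ductal values (2.97 in suffix 1 and 12.4 in suffix 4) lay below all of these. The values of 97.3 and 97.8 CPM rest on few UMIs of Cox6b2, since those cells held 51411 and 51149 UMIs in all. Alveolar macrophage-like cells ran from 91.7 to 145 CPM over 5 suffixes. Cox6b1 differed far less between the same classes, at 409 CPM in Col13a1, 368 in Col14a1, 527 in ductal and 548 in alveolar macrophage-like cells.

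Cox8b, the muscle-type isoform of subunit 8, was counted at 64.1 CPM (53.9 to 75.6) in Col13a1 fibroblast-like cells, in 112 of 751 cells. Thinning brought that share from 14.9% to 8.50%. It was 22.7 CPM in suffix 1, 68.1 in suffix 4, 68.4 in suffix 5 and 39.1 in suffix 6, with 5 UMIs or fewer in 3 of the 4. Unnamed mesenchymal cells held 13.5 CPM, Col14a1 cells 2.92 and ductal cells 0.764, and 41 lymphatic endothelial-like cells held 13 UMIs in 5 cells (104 CPM). Mural-like and endothelial cells had 0 UMIs, which allows up to 26.8 CPM in the thin mural class and 1.78 CPM in endothelium. Cox8a, its common paralog, stood at 732 CPM in Col13a1 cells.

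Cox6a2, the muscle-type isoform of subunit 6A, was counted in all 23 plasmacytoid dendritic-like cells, at 1766 CPM (1519 to 2041) against 338 CPM of Cox6a1. Thinned to 1500 UMIs, 18 of 22 still held it, against 1.92% of B-like cells (2.13% unthinned). Epithelial-like cells followed at 128 CPM, from 54.7, 112 and 258 in the 3 suffixes with enough cells. Unnamed leukocytes held 60.9 CPM, where 91 of 133 UMIs came from 1 barcode described below, and B-like cells 13.6 CPM. T-like, Col13a1, Col14a1 and mural-like cells had 0 UMIs. Among mesenchymal cells as a whole it had 4 UMIs. Its gene overlaps Itgad, which lies on the opposite strand. Cox7a1, the muscle-type isoform of subunit 7A, was low throughout. Its highest named class was alveolar macrophage-like cells at 15.1 CPM (87 of 1241 cells) against 337 CPM of Cox7a2. Epithelial-like cells followed at 12.8 CPM. It passed 10 times its median class because that class stood at 1.25 CPM. Unnamed leukocytes held 28.8 CPM, where 54 of 63 UMIs came from the same barcode.

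Not all paralogs were split by class. Atp5g1, Atp5g2 and Atp5g3 encode the same mature ring subunit of ATP synthase from different genes, and Atp5g2 was the most abundant of the 3 in mesenchymal cells (284 CPM, against 213 and 140) and in leukocytes (474, against 246 and 206). Cox7b ran from 112 CPM in neutrophil-like to 333 CPM in NK-like cells.

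The genes of the restricted isoforms lie apart in the GRCm38 annotation: Cox4i2 at chr2:152754173-152765037 on the plus strand, Ndufa4l2 at chr10:127514967-127517154 on the plus strand, and 4 on chromosome 7. These are Cox6b2 at chr7:4751792-4753094 and Cox7a1 at chr7:30184144-30186078 (plus), with Cox6a2 at chr7:128205435-128206387 and Cox8b at chr7:140898945-140900446. All but Cox7a1 of those 4 are on the minus strand.

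**Figure D3:**
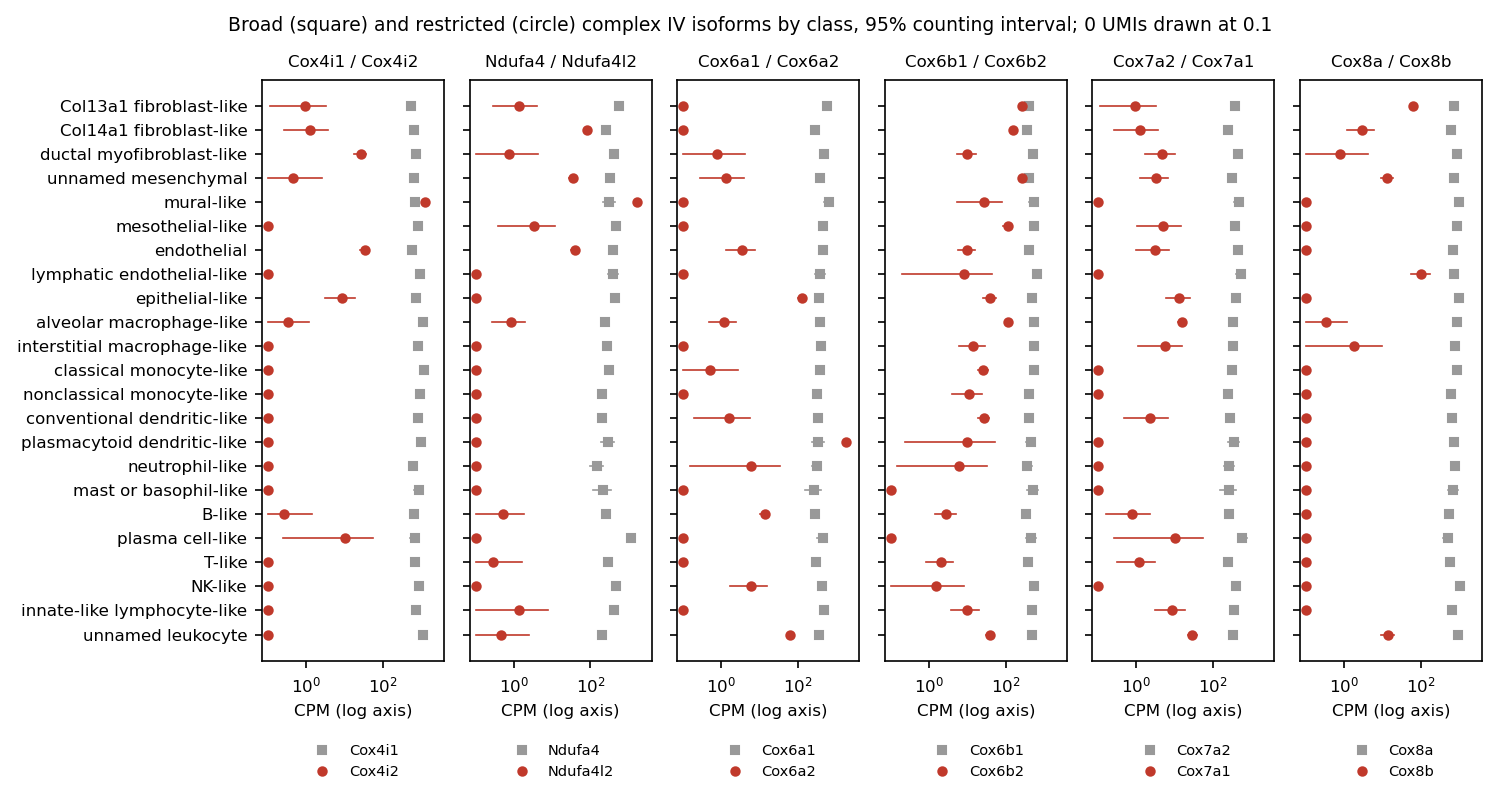
CPM (x axis, log scale) of 6 pairs of complex IV isoforms in 23 classes (y axis). Grey squares are the broad isoform, red circles the restricted isoform, lines exact 95% Poisson intervals, and classes with 0 UMIs are drawn at 0.1 CPM. Cox4i2 and Ndufa4l2 peak in mural-like cells (1261 and 1655 CPM) and Cox6a2 in plasmacytoid dendritic-like cells (1766 CPM).

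Each class was next compared with the remaining cells of its kind, as a log2 ratio of CPM with 10 CPM added to both sides. A gene was measured if either side reached 20 CPM and counted as higher or lower past 2-fold. In ductal myofibroblast-like cells (530 against 2015 other mesenchymal cells), 82 of 90 members were measured. Of these 0 passed 2-fold upward and 3 downward, where 12.6% of all measured genes passed either way (4.55% upward, 8% downward). The 3 were Cox6b2, lower by a factor of 23.0 (13.4 to 43.3), Ndufa4l2, from 1 UMI, by 87.5 (15.6 to 3464), and Cox8b, also from 1 UMI, by 33.5 (5.94 to 1332). The other mesenchymal cells include the mural-like cells, which hold 141 of the 181 mesenchymal UMIs of Cox4i2 and 185 of the 463 of Ndufa4l2. Without them Cox4i2 stood higher in ductal cells (26.0 against 0.882 CPM, log2 1.72), so 1 member passed upward.

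Below that threshold the ductal members lay mostly to the higher side: 73 of 82 had a log2 ratio above 0, with a median of 0.29 against 0.05 for all measured genes. All 8 members of complex III, all 4 of complex II, 33 of 36 of complex I and 14 of 15 of ATP synthase were above 0. Cox7c, a small complex IV subunit, led with 870 against 512 CPM (log2 0.75), before the complex I subunit Ndufs5 (0.67) and the complex III subunit Uqcr11 (0.66). The ATP synthase core subunit Atp5b was at 208 CPM (0.54) and the complex I core subunit Ndufs3 at 74.1 CPM (0.43). The complex IV subunit Cox5a (-0.29) lay below 0. Within suffix 1 the median was 0.33, and within suffix 4 it was also 0.33.

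Col14a1 fibroblast-like cells showed the opposite side. Of 82 measured members 0 passed 2-fold upward and 2 downward (Cox4i2 and Cox8b), where 6.79% of all genes passed (2.8% upward and 3.99% downward). Without suffix 4 only 1 did. Cox4i2 passed through the mural-like cells alone: without them it stood at 1.25 against 6.48 CPM and was not measured, while Ndufa4l2 passed upward (82.5 against 14.002 CPM, log2 1.95). The median was -0.26 against -0.06 for all genes, and 72 of 82 members lay below 0. Next lowest was the complex I subunit Ndufa11 (124 against 234 CPM). Cox6a1 stood at 273 against 479 CPM, the complex I core subunit Ndufs8 at 53.4 against 92.7 and the complex III core protein Uqcrc1 at 38.8 against 69.0. Highest were Ndufa4l2 (log2 0.74), the complex I subunit Ndufa1 (0.25) and Cox7a2l (0.23), which joins complexes III and IV into supercomplexes. The median was -0.21 within suffix 1 and -0.23 within suffix 4. Ndufa11 held 120, 117, 128 and 125 CPM in suffixes 1 to 4 of this class, against 220 and 306 CPM in ductal cells of suffixes 1 and 4. These single values did not overlap, but their counting intervals were not compared. Suffixes 2 and 3 held only 51411 and 54753 UMIs in this class, so their values rest on few UMIs of Ndufa11.

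Col13a1 fibroblast-like cells had a mixed pattern. Of 82 measured members 1 passed 2-fold upward (Cox8b, 10.2-fold, 7.07 to 14.98) and 2 downward, Ndufa4l2 from 3 UMIs, by a factor of 55.5 (lower bound 18.9) and Cox4i2, from 2 UMIs, by 32.4 (lower bound 8.84). Without mural-like cells Ndufa4l2 was still lower (1.37 against 46.4 CPM), but Cox4i2 stood at 0.915 against 6.41 CPM and was not measured. Of all genes 9.63% passed (5.03% upward and 4.6% downward). The median was 0.04 against 0.08 for all genes, and it was -0.11 without suffix 4 and -0.29 within suffix 1. Ndufc2 of complex I (210 against 114 CPM) and Ndufa4 (545 against 318) lay highest after Cox8b, and Ndufs8 stood at 119 against 67.7 CPM and Cox6a1 at 570 against 364. Cox7a2l lay lowest after the isoforms (281 against 514 CPM, log2 -0.85), and Uqcrh of complex III stood at 328 against 502 CPM (-0.60). Ndufa11 ran from 156 to 301 CPM over 4 suffixes, above all 4 Col14a1 values as single values. Counting intervals were not compared, and suffix 6 held only 51149 UMIs in this class.

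In mural-like cells 84 members were measured, of which 5 passed 2-fold upward and 2 downward, where 26.5% of all genes passed (14.8% upward and 11.7% downward). With 111791 UMIs in this class, 1 UMI is worth 8.95 CPM, and counting error alone moves many low genes. Beside Cox4i2 and Ndufa4l2, Uqcrc1 was higher (170 against 58.7 CPM, from 19 UMIs), as were the assembly factors Ndufaf6 and Ndufaf7, from 4 and 5 UMIs. Cox6b2 was lower, from 3 UMIs, by 7.29 (2.49 to 35.4). Cox8b had 0 UMIs, and its level elsewhere (21.9 CPM) lies under the limit that 0 allows here. The median was 0.35 against 0.21 for all genes. Members of complex I had a median of 0.42 and those of ATP synthase 0.09. Complex IV as a whole summed to 8847 CPM, against 5936 in ductal cells, and Cox4i2 and Ndufa4l2 supplied 141 and 185 of its 989 UMIs. Cox7a2l stood at 250.5 against 455 CPM (log2 -0.84).

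Pooled over suffixes, endothelial cells differed little from mesenchymal cells in these genes. Of 84 measured members 0 passed 2-fold upward and 2 downward, where 27.7% of all genes passed (15.3% upward and 12.4% downward). Cox6b2 was lower by 19.2 (12.0 to 33.1), and Cox8b, with 0 UMIs, was at least 12.2-fold lower at 3 UMIs over the class. Without suffix 4 the count was 1. With mural-like cells left out of the mesenchymal side, Cox4i2 passed upward (33.1 against 4.93 CPM). The median was -0.02 against 0.20 for all genes. Highest were the assembly factor Ndufaf6 (20.7 against 7.66 CPM), the iron-sulfur subunit Sdhb (153 against 99.3 CPM) and Atp5sl (20.1 against 11.2 CPM). Ndufa11 (111 against 202 CPM) was lowest after the isoforms. All 4 complex II subunits lay above 0, with a median of 0.23. The pooled comparison mixes suffixes unevenly, since suffix 4 held 1844 of 2545 mesenchymal and 89 of 596 endothelial cells. Within suffix 1 the members' share was lower in endothelial cells (1.44% against 1.54%). It was higher in suffixes 2 to 6, as in suffix 4 (1.95% against 1.80%) and suffix 5 (2.01% against 1.70%). Counts past 2-fold within single suffixes, given below, were mostly higher than the pooled count. The share of all genes past 2-fold within a suffix is not given, so these counts have no background beside them.

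Leukocyte-like cells against mesenchymal cells gave 3 members past 2-fold upward and 6 downward of 83 measured, where 36% of all genes passed (14.9% upward and 21% downward). Cox5a, a nuclear-encoded subunit of complex IV, was higher 3.01-fold (2.79 to 3.25; 282 against 93.6 CPM). Atp5sl, now classed as a complex I assembly factor, was 3.01-fold higher (33.7 against 11.2 CPM) and the Rieske iron-sulfur protein Uqcrfs1 2.15-fold (159 against 73.9 CPM). The lower members were the isoforms Ndufa4l2, Cox4i2, Cox8b and Cox6b2 and the complex I subunits Ndufa5 (76.5 against 183 CPM) and Ndufa11 (94.7 against 202 CPM). Without mural-like cells on the mesenchymal side Cox4i2 (0.183 against 4.93 CPM) was not measured and 5 members were lower. Of the 33 leukocyte UMIs of Cox8b, 30 came from 1 barcode rich in heart muscle transcripts, without which the ratio is log2 -1.64 in place of -1.46.

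The levels behind 2 of these members were also read by suffix. Cox5a ran from 336 to 410 CPM in 5 suffixes of alveolar macrophage-like cells, from 143 to 210 in B-like and from 177 to 334 in T-like cells. It ran from 60.5 to 136 CPM in the suffixes of the 3 named fibroblast classes, below all of those as single values. The gap was narrow (136 against 143 CPM), and counting intervals were not compared. Among leukocyte classes not read by suffix, mast or basophil-like and plasma cell-like cells held Cox5a at 105 and 139 CPM, and the others higher. Ndufa5 was at most 80.3 CPM in alveolar macrophage-like and 76.4 CPM in B-like suffixes but reached 123 CPM in T-like cells of suffix 4. In fibroblast suffixes it ran from 98.2 CPM upward, so only that T-like value overlapped with them among these 3 leukocyte classes. The core subunits of ATP synthase lay to the higher side in leukocytes: Atp5b at 294 against 151 CPM, Atp5c1 at 249 against 152 and Atp5a1 at 251 against 170. The median over 15 ATP synthase members was 0.36, and over 36 complex I members -0.14.

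Over all members the leukocyte median was -0.02, against -0.12 for all measured genes. It rose to 0.19 with ribosomal and mitochondrial genes left out of the total, so its sign depends on that choice. Plasma cell-like cells (16) stood apart in 2 members, with Ndufa1 at 1144 CPM and Ndufa4 at 1154 CPM, each in 15 of 16 cells. No other class passed 317 CPM for Ndufa1.

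Alveolar macrophage-like cells against other leukocytes gave 2 members past 2-fold upward and 1 downward of 80 measured, where 26% of all genes passed (16.6% upward and 9.37% downward). Cox6b2 was 8.61-fold higher (7.39 to 10.1) and Uqcr11 2.27-fold (462 against 204 CPM). Uqcrq, also of complex III, followed at 502 against 254 CPM. The complex II subunits Sdhc (80.7 against 36.8 CPM) and Sdha (144 against 79.1 CPM) came next, while Sdhb lay lower (log2 -0.39). The member lowest was Cox6a2, of whose 377 UMIs in other leukocytes 183 lay in plasmacytoid dendritic-like cells and 91 in the heart-muscle-rich barcode. Without that barcode Cox6a2 was no longer measured and the count was 2. The median was 0.11 against 0.20 for all genes, and -0.16 without ribosomal and mitochondrial genes in the total.

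**Figure D4:**
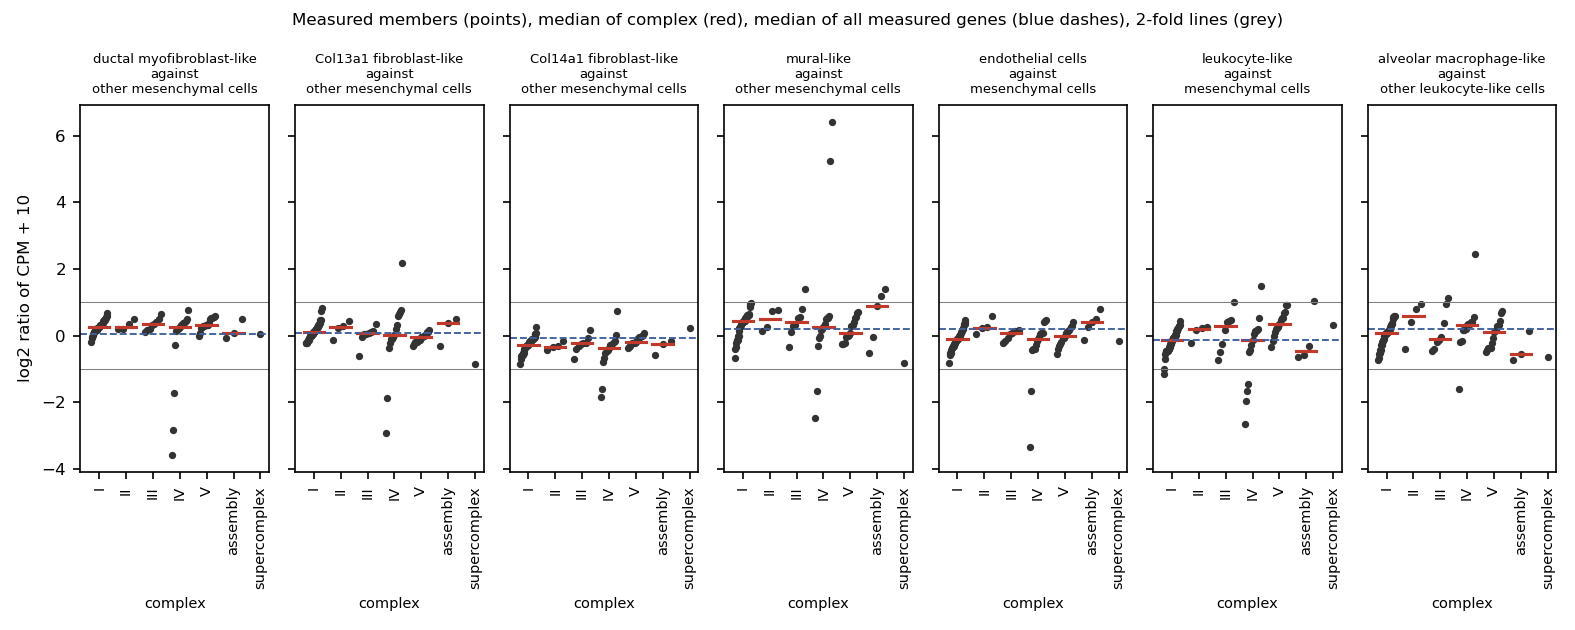
Log2 ratio of CPM + 10 (y axis) of each measured member (points) by complex (x axis) in 7 comparisons (panels). Red bars are medians of a complex, blue dashes the median of all measured genes, grey lines 2-fold. Complex IV holds the isoforms far from 0, up to 6.41 for Cox4i2 in mural-like cells, while ductal members lie mostly above 0 and Col14a1 members mostly below.

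The ratio of summed members moved with the total used, and its sign changed in 2 comparisons. Ductal cells gave a log2 ratio of 0.29, or 0.26 without ribosomal and mitochondrial genes. Col14a1 cells gave -0.23 and -0.16, mural-like cells 0.45 and 0.31, endothelial cells -0.09 and -0.15, and leukocytes 0.05 and 0.27. The mural-like sums include Cox4i2 and Ndufa4l2, at 1261 and 1655 CPM in that class. The sign changed for Col13a1 cells (0.03 and -0.11) and for alveolar macrophage-like cells (0.18 and -0.12).

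Genes of the same pathway outside the 90 were read from lists. The 13 mitochondrially encoded subunits had a median of -0.22 in ductal cells, where the nuclear members' was 0.29. It was 0.43 in Col13a1 cells (nuclear 0.04), -0.14 in Col14a1 cells (-0.26) and 0.14 in mural-like cells (0.35), with 0 of 13 past 2-fold in each. Nuclear members held 0.758 UMIs per mitochondrially encoded UMI in ductal, 0.516 in Col14a1 and 0.433 in Col13a1 cells. Of 22 assembly genes of complexes III and IV, 13 were measured in ductal cells with 0 past 2-fold and a median of 0.12, led by Cox20 (170 against 84.3 CPM). In mural-like cells 12 were measured and 1 was lower, Ttc19 (8.95 against 48.3 CPM, 1 UMI in that class), where 11.7% of all genes were lower.

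Of the citric acid cycle genes, 15 were measured in ductal (median 0.03) and mural-like cells (0.33). Fumarase Fh1 was the 1 called in the latter (62.6 against 16.4 CPM), where 14.8% of all genes were higher. Of electron carriers and subunits outside the symbol rule, 7 were measured in ductal and mural-like cells with 0 past 2-fold (medians 0.29 and 0.18), led in both by the ATP synthase inhibitor Atpif1 (354 and 429 CPM). Glycolytic enzymes had a median of 0.43 in ductal cells, with 0 of 9 past 2-fold and Ldha at 214 against 107 CPM. In leukocytes their median was 0.94, with 4 of 10 higher, led by Gapdh (641 against 161 CPM), where 14.9% of all genes were higher. In mural-like cells 2 of 11 were higher, led by hexokinase Hk1 (98.4 against 18.5 CPM), near the 14.8% of all genes that were higher there. Of carriers, porins and the uncoupling protein Ucp2, 0 of 6 passed in ductal and 1 of 6 in mural-like cells, the adenine nucleotide carrier Slc25a5 (197 against 79.4 CPM), again near that 14.8%. Ucp2 was higher in endothelium (239 against 15.4 CPM) and leukocytes (838 against 15.4 CPM).

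Among 12 hypoxia-induced genes, 7 were measured in mural-like cells, where Cox4i2 and Ndufa4l2 peaked, with 0 higher and 3 lower. Of all genes measured there, 14.8% were higher and 11.7% lower. Egln1 was highest (35.8 against 23.8 CPM, log2 0.44) and Adm lowest (26.8 against 123 CPM). In Col14a1 cells 7 were measured and 0 passed 2-fold, with Ndrg1 highest (75.9 against 36.2 CPM). In ductal cells 2 of 8 were higher, led by Egln3 (21.4 against 1.16 CPM), and 3 lower, led by Vegfa (3.05 against 75.8 CPM). Of all genes measured in that comparison, 4.55% were higher and 8% lower. Of regulators of mitochondrial biogenesis, 1 of 6 measured was higher in mural-like cells, Tfam (62.6 against 23.8 CPM), and 0 of 5 in ductal cells, where Tfam stood at 34.4 against 22.4 CPM. The mural-like count again lies near the 14.8% of all genes, and 1 UMI is worth 8.95 CPM there.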

How the data were processed

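Single-cell RNA-seq was made with 10x 3′ v2 chemistry, per the labels. UMI counts per gene and barcode were deposited by the authors as 1 pooled table, made with Cell Ranger 1.3.0 and STAR 2.5.1 on mm10, per the submitters' processing notes. How cells were called and whether counting used strand are not given in the sources used here. A second, normalized table was not used, and 0 per-sample columns were left unmapped. With python 3.11.15, numpy 2.4.6, scipy 1.17.1, pandas 2.3.3, scanpy 1.11.5, scikit-learn 1.9.0, leidenalg 0.10.2 and igraph 0.11.9, barcodes with at least 500 genes and at most 10% mitochondrial UMIs were kept (9994), and 75 called doublets (0.75%, Scrublet) were removed. Clusters (2000 variable genes, 30 components, 15 neighbours, Leiden resolution 0.8) were built without the members and mitochondrial genes and named from marker lists; the naming rules were written after preliminary clusters were seen. Of cells in fibroblast clusters, 396 failed the collagen minimum and were left out, as were 60 in endothelial clusters. CPM is UMIs per 1000000 UMIs of a class. Intervals are exact Poisson, Clopper-Pearson or conditional binomial at 95%. Per-suffix values need at least 20 cells. Named members are a list of isoforms and core subunits, the 3 highest and 3 lowest in each comparison, the 3 most abundant per complex and those over 10 times their median class; others named were singled out after their values were seen. The members and lists were chosen with earlier results of these data known. The comparison script was tested on simulated data. Alternatives in filters, doublets, totals, weighting, gates, clustering, minimum, fold and suffixes were tried.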

Additional observations from a re-analysis of the deposited data

How the results depend on the processing

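No paired analysis was possible because the results come from no test. Values within each suffix are given in its place. Of the counts of members past the fold, 130 of 158 recomputed values stayed within 1.5 times the main count, and of the medians 146 of 158 moved by less than the comparison's own interval. At a fold of 1.5 the counts were 8 (ductal), 10 (Col13a1), 11 (Col14a1), 24 (mural), 5 (endothelial), 17 (leukocyte) and 13 (alveolar macrophage). With a 50 CPM minimum they were 0 (Col14a1), 4 (mural) and 1 (endothelial). The stricter cell filter gave 11 for mural-like cells and the stricter gates 1 for endothelium. For alveolar macrophage-like cells, keeping doublets gave 5, and the mean over cells also 5. Within suffixes, counts were 10 (Col13a1), 4 (leukocyte) and 6 (alveolar macrophage) in suffix 1, 5 (endothelial) and 5 (alveolar macrophage) in suffix 2, 11 (endothelial), 17 (leukocyte) and 5 (alveolar macrophage) in suffix 3, 1 (alveolar macrophage) in suffix 4, 13 (endothelial) in suffix 5, and 9 (endothelial) and 14 (leukocyte) in suffix 6. Leaving out each suffix in turn gave 1 to 2 for Col14a1 and 1 to 2 for endothelial cells, in both the lower value without suffix 4. The share of all measured genes past the fold at each of these settings is not given here. The counts are therefore not read against a background. Medians moved to -0.29 (Col13a1, suffix 1) and 0.26 (endothelial, suffix 5). For leukocytes the median was 0.19 with ribosomal and mitochondrial genes left out of the total, 0.10 centred on all genes, and 0.10, 0.084, 0.29 and 0.22 within suffixes 1, 2, 3 and 6. For alveolar macrophage-like cells it was -0.16 without those genes, -0.094 centred, 0.35 within suffix 1 and -0.044 within suffix 3. Thinning to 1500 and then 1000 UMIs gave shares of cells with Cox4i2 of 3.97% and 2.73% in ductal and 3.62% and 1.88% in endothelial cells, and of 49.1% in mural-like cells at 1000. Shares with Ndufa4l2 were 8.75% and 5.46% in Col14a1 and 2.58% and 1.501% in endothelial cells. The log2 ratio of Cox4i2 in leukocytes against mesenchymal cells was 0.045 within suffix 5, against -1.65 pooled. Apart from thinning, which removes UMIs, and within-suffix values, which rest on fewer cells, the cause was not tested. Leaving mural-like cells out of the mesenchymal side, chosen after seeing the data, changed which members passed but kept all 5 counts within 1.5 times. Of the 7 classes compared, depth limits the mural-like class most.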

Other observations

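A single barcode of suffix 3 held 1024 UMIs of cardiac muscle transcripts, where the next highest barcode held 25, and it was singled out after its values were seen. It lay among the unnamed leukocytes although it had 0 UMIs of the leukocyte gene Ptprc. Of its 9306 UMIs, 17.7% (16.9 to 18.4) came from nuclear oxidative phosphorylation genes and 0.999% from mitochondrially encoded genes. Cox6a2 was its highest complex IV member at 9779 CPM, followed by Cox6c at 7092, Cox7c at 6340 and the muscle isoform Cox7a1 at 5803, while the muscle isoform Cox8b stood at 3224. The broad isoforms Cox7a2 and Cox8a stood at 2364 and 1504 CPM, and Cox6a1 had 0 UMIs, which allows up to 322 CPM. Atp5e stood at 6018 CPM, Cox4i1 at 3654 and Ndufa4 at 3439. Being 1 barcode, it has no replicate.

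Nuclear and mitochondrially encoded subunits stood in different ratios by class. Epithelial-like cells held 0.336 nuclear UMIs per mitochondrially encoded UMI and B-like cells 0.392, against 0.925 in classical monocyte-like, 0.943 in NK-like and 1.07 in neutrophil-like cells.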
